A study of Mus musculus with 5 samples.

Results

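Dentate granule neurons are the densely packed principal neurons of the dentate gyrus in the hippocampus. The nuclei described here are those that carried granule cell markers and stayed below a threshold for genes switched on by strong activity. They were taken from paired RNA and chromatin accessibility profiles of single nuclei of mouse hippocampus. Among nuclei with 1000 or more detected genes, each gene's ln(1 + UMIs per 10000) was turned into a z score over all nuclei, and the z scores of a gene set were averaged. UMIs, unique molecular identifiers, count captured RNA molecules. A nucleus was a member if its score for Prox1, Glis3, Stxbp6, C1ql2, Trpc6 and Plk5 was at least 0.5, its score for the inhibitory genes Gad1, Gad2 and Slc32a1 was below 0.5, and its score for the activation genes Penk, Pappa, Col27a1, Acvr1c, Gsg1l and Sv2c was below 1. By this rule 6120 of 27681 nuclei were members. Measured RNA values therefore chose them, and their levels of the rule's genes are given as a description.

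The 5 libraries came from 5 genotypes, with 1 library each. They were wild type mice, 5xFAD mice, and 5xFAD mice whose label adds a knockout of MAGL in astrocytes, in neurons or in the whole animal. 5xFAD mice carry human transgenes with familial Alzheimer's disease mutations under the Thy1 promoter and build up amyloid. MAGL, encoded by Mgll, is the lipase that breaks down the main endocannabinoid of the brain. All 3 knockout libraries carry the 5xFAD transgenes too, so each was compared with 5xFAD and 5xFAD with wild type. The labels give neither the Cre drivers nor the age, the sex or the number of animals. Every library held nuclei with Xist, the RNA of the inactive X chromosome, and nuclei with Y-linked RNA, so animals of both sexes were pooled in each. With 1 library per genotype no test between genotypes was possible, and every SE and interval below covers counting error only. Values follow the order wild type, 5xFAD, astrocyte MAGL-KO, neuron MAGL-KO and global MAGL-KO wherever 5 are given.

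Members held 1388, 1153, 1323, 829 and 1427 nuclei, with median depths of 13601, 14237, 11739, 15008 and 12366 UMIs and 15190332 to 22251201 UMIs in all. Between 29 and 63 barcodes were shared by any pair of libraries, and 1 to 5 of them were members in both. Mgll was not lower in the knockout libraries. Its level in members was 86.1, 82.5, 109, 108 and 96.7 counts-per-million (CPM), that is UMIs scaled to a common total, and in nuclei with Y-linked RNA it was 85.1, 84.4, 113, 119 and 97.99 CPM. Reads outside a deleted exon would still be counted, so this does not check the labels, and the 3 libraries are called by their labels throughout.

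Granule cells receive the main cortical input to the hippocampus and send mossy fibres to CA3. They express the transcription factor Prox1 for life and buffer calcium with calbindin, encoded by Calb1. Few of them fire at a time, and strong activity first induces immediate early genes such as Fos and later a slower set that includes Bdnf, Penk and Sorcs3.

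The 6 granule genes of the rule, which chose the members and so describe them only, summed to 2928, 2876, 2770, 2722 and 2826 CPM in members, against 175 to 253 CPM in CA1-like nuclei, which were chosen by 6 CA1 markers. Prox1 was at 226 to 245 CPM. The label was checked on granule genes that the rule did not use. The calcium buffer gene Calb1 was at 134, 145, 128, 119 and 109 CPM, and its log2 ratio to CA1-like nuclei was 1.06 to 1.75 over the libraries. Dsp, which encodes the junction protein desmoplakin, exceeded CA1-like nuclei by 2.37 to 2.67, and Rfx3, a transcription factor gene, by 2.26 to 2.51. For Synpr, a mossy fibre vesicle protein gene, that log2 ratio was 2.91 to 3.51. Against CA3-like nuclei the 10 granule genes outside the rule ranged from 0.32 for Neurod1 in its lowest library to 3.27 for Dock10 in its highest.

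Markers of other cell types differed in how low they were. The 6 interneuron markers summed to 53.8 to 67.8 CPM over the libraries (502 to 574 CPM in all nuclei), which the rule fixed in part, since 3 of them are its inhibitory genes. The 5 vascular markers summed to 1.3 to 2.6 CPM (3.18 to 5.45). The 5 astrocyte markers, at 41.8 to 52.4 CPM, were above the 22.1 to 34.8 CPM of all nuclei. Most of this sum was Slc1a3, a glutamate transporter gene, at 36.5 to 47.9 CPM, and Gja1, Gfap, Aldh1l1 and Aqp4 were each at 0.263 to 2.83 CPM. The 6 oligodendrocyte markers summed to 367 to 394 CPM, against 254 to 417 CPM in all nuclei and 136 to 209 CPM in CA1-like nuclei. CA3 markers, at 639.6 to 734 CPM, were near the 653 to 759 CPM of all nuclei and below the 1845 to 2029 CPM of CA3-like nuclei. The part of RNA from other cells in the results was not tested. Mossy cell markers reached 3.5 to 5.2 CPM and immature granule markers 66.9 to 89.0 CPM. CA1 markers summed to 79.0, 76.8, 104, 112 and 113 CPM, higher in all 3 knockout libraries than in the other two. That order did not hold in Y members, which had 41.6, 60.7, 55.1, 21.8 and 54.9 CPM. The label's words on activation genes held only in part. Between 11.7% and 21.2% of members had an activation score of 0.5 to 1, and Penk was at 3.64 to 10.7 CPM. They are therefore called granule members, or granule neurons below the activation threshold.

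There were 587 members with a granule score of 0.5 to 0.6 and 596 nuclei just outside, at 0.4 to 0.5, with median depths of 15583 and 17721 UMIs. Nuclei with both Xist and Y-linked UMIs, which hold RNA of both sexes, made up 17.0% of the former and 23.0% of the latter. At the activation threshold 132 members scored 0.9 to 1.0 and 91 nuclei just above it were left out.

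Chromatin was measured in the same nuclei and was not used by the rule. Transposase cut sites were counted in the peaks listed for each library, overlapping peaks of different libraries were joined to regions, and members were compared with CA1-like and CA3-like nuclei of the same library. There were 86054 regions listed in all 5 libraries with at least 200 cut sites in members. Of these, 6086 (7.07%) were at least 2-fold more open in members in every library. A level of 0.5 or less in every library was seen in 2355 regions. No minimum was set for CA1-like and CA3-like nuclei, so regions open mainly there could drop out. The higher and lower counts therefore cannot be set against each other. Among 14601 promoter regions the 2-fold share was 168 (1.15%). No p is given, since 5 libraries could not go below 0.0625 in an exact two-sided paired test. The promoters of granule genes that were 2-fold more open in members in every library are shown by sequence where the reference table had one in the region, beside the cut site values of these genes.

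The sequences are the 250 bases upstream of the start site from RefSeq on build GRCm38.p6, 5′ to 3′ on the gene's strand. Capitals mark GC boxes (GGGCGG on either strand), which 33.0% of 32536 promoters hold. The windows lie at chr1:120340332-120340581 on the plus strand for C1ql2, chr3:81975729-81975978 on the minus strand for Tdo2, chr13:38151044-38151293 on the plus strand for Dsp, chr9:8543892-8544141 on the plus strand for Trpc6 and chr14:13284530-13284779 on the plus strand for Synpr.
C1ql2: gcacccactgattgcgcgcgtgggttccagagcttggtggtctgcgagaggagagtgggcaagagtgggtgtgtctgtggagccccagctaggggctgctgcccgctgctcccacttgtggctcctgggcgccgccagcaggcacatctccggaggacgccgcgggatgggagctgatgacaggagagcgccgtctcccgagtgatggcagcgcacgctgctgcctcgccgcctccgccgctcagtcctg
Tdo2: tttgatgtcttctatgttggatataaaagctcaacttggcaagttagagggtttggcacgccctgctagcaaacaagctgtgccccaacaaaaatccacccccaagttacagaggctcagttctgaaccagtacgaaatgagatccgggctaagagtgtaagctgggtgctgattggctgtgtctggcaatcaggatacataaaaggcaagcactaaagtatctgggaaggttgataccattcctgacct
Dsp: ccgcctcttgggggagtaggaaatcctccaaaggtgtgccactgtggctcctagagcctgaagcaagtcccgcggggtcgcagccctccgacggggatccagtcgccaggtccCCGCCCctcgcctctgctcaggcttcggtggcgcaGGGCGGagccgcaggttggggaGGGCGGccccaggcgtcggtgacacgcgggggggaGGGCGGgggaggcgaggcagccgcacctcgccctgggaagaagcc
Trpc6: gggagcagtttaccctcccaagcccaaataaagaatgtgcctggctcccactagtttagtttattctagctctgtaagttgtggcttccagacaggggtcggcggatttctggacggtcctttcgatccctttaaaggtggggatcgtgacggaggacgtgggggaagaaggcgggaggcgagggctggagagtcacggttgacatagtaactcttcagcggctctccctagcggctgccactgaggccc
Synpr: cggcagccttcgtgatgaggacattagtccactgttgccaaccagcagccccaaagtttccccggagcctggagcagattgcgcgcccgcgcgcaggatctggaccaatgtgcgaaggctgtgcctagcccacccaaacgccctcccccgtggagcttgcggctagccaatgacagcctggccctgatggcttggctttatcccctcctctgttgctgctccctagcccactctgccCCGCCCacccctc
The Dsp promoter holds 4 GC boxes and the Synpr promoter 1, and those of C1ql2, Tdo2 and Trpc6 hold none. None of the 5 holds CAGATG or CAGCTG (E-boxes), TGANTCA (the AP-1 motif) or TGACGTCA (the CRE), searched on both strands. These letters occur in 14.4%, 13.1%, 6.73% and 1.56% of promoters. Of the 16 granule genes examined, 15 were in the table and 9 had a sequence that overlapped a used region. Of these 9 promoters 2, those of Glis3 and Cdh9, hold CAGCTG, and neither was 2-fold more open in every library.

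The promoter of C1ql2, which encodes a synaptic organiser that mossy fibres secrete, had 41.9, 35.2, 34.7, 32.9 and 34.1 cut sites, scaled to CPM of all cut sites in listed peaks, in members. In CA1-like and CA3-like nuclei the same region at chr1:120340178-120341045 had 10.1, 8.88, 10.0, 9.69 and 8.73 CPM, a ratio of 3.40 to 4.15. All 5 member values lay above all 5 pyramidal values. Tdo2 encodes tryptophan dioxygenase, an enzyme of tryptophan breakdown that is restricted in brain. Its promoter (chr3:81975418-81976341) had 13.3, 13.96, 13.4, 13.0 and 13.4 CPM in members and 3.29, 2.87, 2.03, 3.00 and 2.68 in the pyramidal nuclei, a ratio of 4.04 to 6.63. Dsp (chr13:38150969-38151909) was at 15.6, 13.5, 14.2, 11.9 and 14.03 CPM against 4.88, 5.15, 3.19, 3.78 and 4.50 CPM, and Synpr (chr14:13284241-13285171) was at 36.4, 39.01, 38.6, 33.9 and 39.3 CPM against 14.1, 13.7, 14.6, 15.6 and 14.4 CPM. The region at Trpc6 (chr9:8543934-8544813) had 16.2, 14.6, 12.5, 10.3 and 11.3 CPM against 5.88, 5.02, 4.29, 4.49 and 4.72 CPM. At these genes too every member value lay above every pyramidal value. The genes were chosen as 2-fold more open in every library, which largely fixed this. At Calb1 (chr4:15880793-15881704) members had 26.6, 28.05, 22.6, 24.98 and 20.7 CPM and the ratio was 2.60 to 2.97. Of the granule genes outside the rule, 4 of 8 with a promoter region were 2-fold more open in all libraries, namely Tdo2, Dsp, Calb1 and Synpr. Of the rule's own genes it was 2 of 5, C1ql2 and Trpc6, a cation channel gene.

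**Figure D1:**
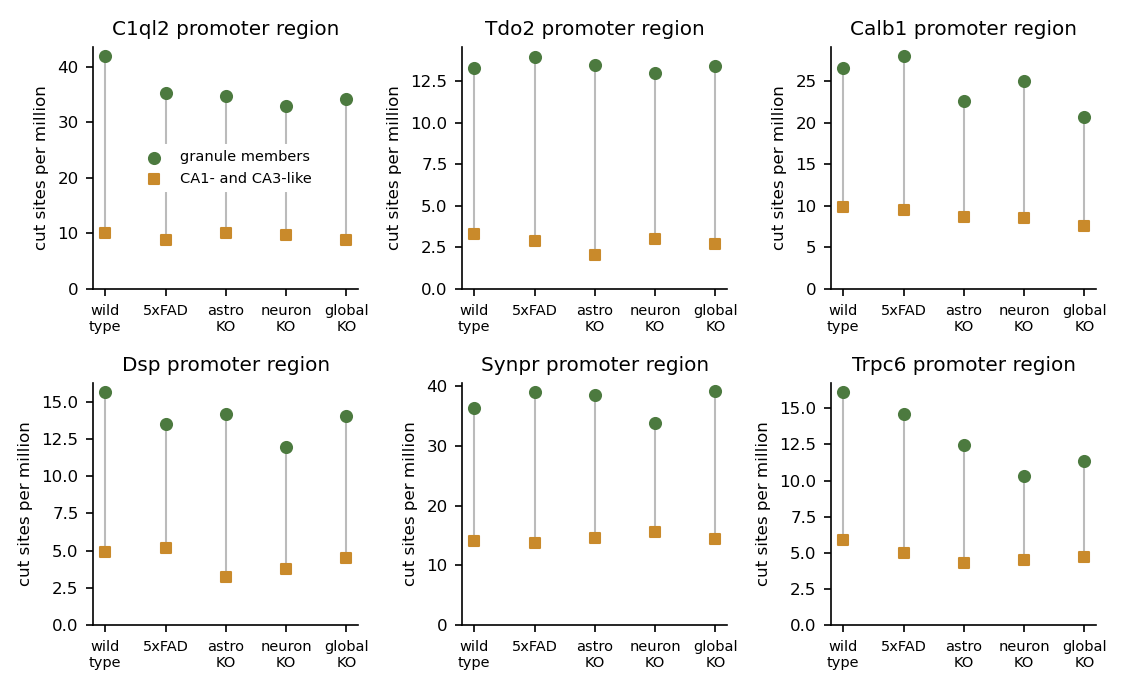
Cut sites, scaled to CPM, in the promoter regions of 6 granule genes (vertical axis) in each library (horizontal axis), for granule members (circles) and for CA1-like and CA3-like nuclei pooled (squares). In all 6 panels every circle lies above every square, for example 32.9 to 41.9 against 8.73 to 10.1 at C1ql2. The genes were chosen as 2-fold more open in members in every library, which largely fixed this.

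Among other promoters the one of Slc30a3, the transporter that loads zinc into mossy fibre vesicles, was 2.16 to 2.48 times as open in members, at 33.8, 34.7, 30.2, 33.9 and 31.6 CPM. Gad1 encodes the enzyme that makes GABA, and granule cells are known to express it at times. Its promoter (chr2:70560717-70561650) was at 12.8, 13.1, 11.7, 10.6 and 9.81 CPM in members and at 2.71 to 4.26 in pyramidal nuclei. Gad1 RNA was also above CA1-like nuclei, by log2 ratios of 1.62 to 1.95, and the rule limited only the mean score of the 3 inhibitory genes. In the other direction the promoter of Cnr1, the main brain cannabinoid receptor gene, was at 7.87, 6.37, 7.45, 7.94 and 8.66 CPM in members and at 18.6, 19.9, 21.2, 20.1 and 20.4 in pyramidal nuclei, a ratio of 0.32 to 0.42. None of 17 immediate early gene promoters and none of 9 late activity gene promoters reached the 2-fold level, which 1.15% of all promoter regions reached, so these zeros are near the background. The regions with the highest ratios were distal. Of the 10 that led by their lowest library, 9 were intergenic, with lowest ratios of 7.41 to 9.93. The 10 held 62 to 278 cut sites in pyramidal nuclei, for which no minimum was set. The first was at chr5:96021925-96022859, 65.4 kb from the start of Cxcl13, and the second at chr17:41959151-41960155, 356 kb from Ptchd4. The one in a gene lay at chr3:83010840-83011781 in an exon of Fgg.

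The share of granule members was highest in wild type. They made up 26.9% (95% exact Clopper-Pearson interval 25.7 to 28.1), 22.5% (21.4 to 23.7), 21.9% (20.9 to 23.0), 20.7% (19.4 to 22.0) and 19.4% (18.5 to 20.4) of nuclei. The wild type interval lies above the other 4. Each is the share of 1 library, so the spread between animals of a genotype is not known. Granule nuclei on either side of the activation threshold together were 28.3%, 23.6%, 25.6%, 27.8% and 25.2% of nuclei, with neuron MAGL-KO near wild type and 5xFAD lowest.

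The other granule nuclei, those above the activation threshold, took larger shares in the 3 knockout libraries. They were 71, 58, 226, 286 and 425 nuclei, or 4.87%, 4.79%, 14.6%, 25.7% and 22.9% of all granule nuclei. Nuclei were then called by sex, Xist nuclei having at least 5 Xist UMIs and at most 1 Y-linked UMI and Y nuclei at least 2 Y-linked and at most 2 Xist UMIs. Among Xist granule nuclei the activated share was 5.06%, 5.60%, 21.7%, 32.0% and 39.7%. Among Y granule nuclei it was 5.50%, 4.25%, 3.67%, 3.31% and 3.51%. The wild type and 5xFAD libraries lay between 4.25% and 5.60% in both sexes, and the 3 knockout libraries were high in Xist nuclei alone. The rule therefore left 199, 263 and 369 Xist nuclei but 16, 6 and 22 Y nuclei out of the members of those 3 libraries. The Xist nuclei left among members were 713, 438, 719, 559 and 561, and the Y nuclei were 498, 608, 420, 175 and 605.

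**Figure D2:**
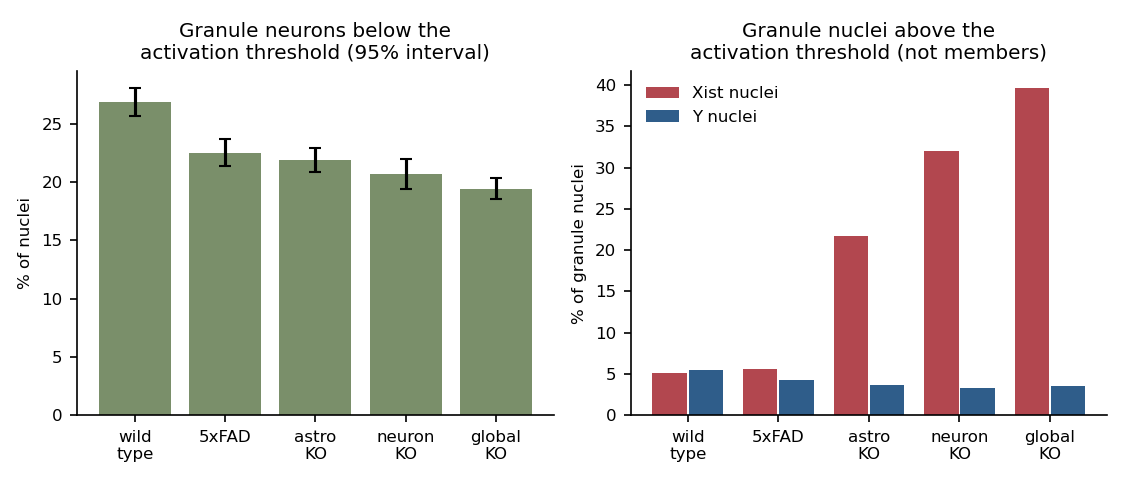
Left, granule members as a percentage of nuclei in each library with 95% Clopper-Pearson intervals. Right, the percentage of granule nuclei above the activation threshold, which are not members, in Xist nuclei and Y nuclei. On the right the Xist bars rise from about 5.06% in wild type to 39.7% in global MAGL-KO and all Y bars lie between 3.31% and 5.50%.

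For gene expression, UMIs were summed over the members of a library, scaled to CPM, and compared as log2 ratios with a pseudocount of 5 CPM, which understates the change of low genes. A gene counted as higher or lower when it passed 1.5-fold and had at least 50 UMIs over both libraries. Nuclei of one library are not replicates, so the same ratio is given within Xist nuclei and within Y nuclei, which come from different animals of the same libraries.

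5xFAD and wild type granule members differed in few genes. Of 13603 genes, 7 (0.0515%) were higher and 13 (0.0956%) were lower in 5xFAD, and the median log2 ratio of all genes was -0.00. In both Xist and Y nuclei 6 genes (0.0441%) were higher, among them Thy1, Hist1h2bc and the glypican genes Gpc5 and Gpc6, and 2 (0.0147%) were lower, the cadherin gene Cdh23 and the synaptic adhesion gene Il1rapl2. Thy1, which encodes a neuronal surface glycoprotein and whose promoter drives the 5xFAD transgenes, changed most. Its level was 35.8 CPM in wild type and 144, 196, 203 and 169 CPM in the 4 libraries with the transgenes, and the log2 ratio of 5xFAD to wild type was 1.87 ± 0.05 (SE of counting). It was 2.16 in Xist nuclei and 1.65 in Y nuclei. CA1-like and CA3-like nuclei had 2.33 and 1.30. Counts of the gene and of a transgene that holds parts of it cannot be told apart.

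Chromatin at Thy1 (chr9:44043384-44048579) followed the same split at its promoter and exonic regions. The promoter region at chr9:44042860-44043763 had 26.5 CPM of cut sites in wild type members and 403, 472, 460 and 440 in the other libraries. A region over the 3′ end of the gene, chr9:44048566-44049427, had 15.4 against 477, 597, 474 and 557, and a further exonic region at chr9:44047273-44047984 was listed as a peak only in the 4 transgenic libraries, at 89.9, 128, 114 and 99.99 CPM. An intronic region at chr9:44044156-44045018 was listed in 3 libraries only, at 12.2 CPM in wild type, 158 in 5xFAD and 171 in neuron MAGL-KO, and has no value in the other two. Upstream of the gene, at chr9:44039508-44040551, no such step was seen (2.81, 2.87, 6.11, 1.68 and 5.48). Within the transgenic libraries Xist nuclei were above Y nuclei in both readouts. Their RNA levels were 170, 222, 216 and 217 CPM against 120, 139, 133 and 110 CPM, and their promoters had 555, 549, 505 and 579 against 312, 361, 318 and 315 CPM of cut sites. In wild type these were 34.4 and 34.6 CPM, and 30.4 and 22.8 CPM of cut sites.

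**Figure D3:**
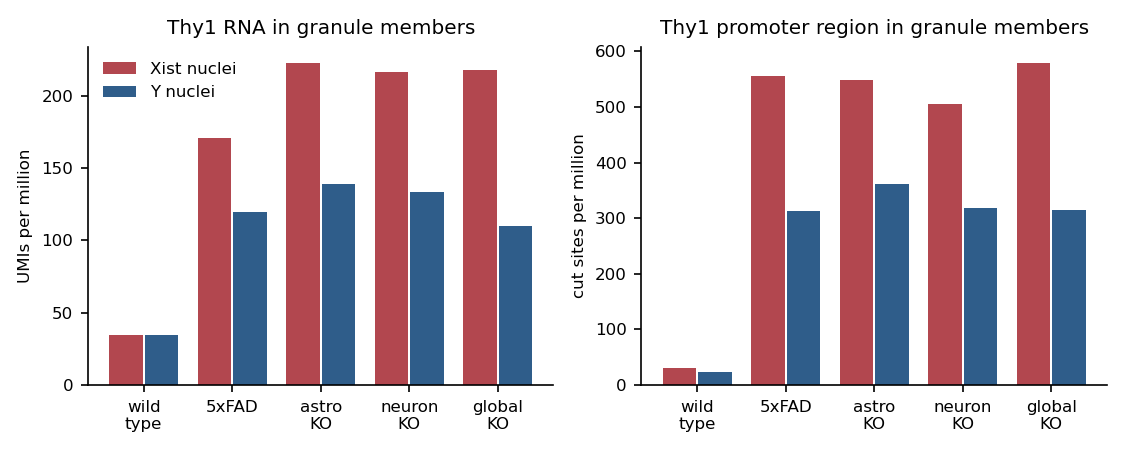
Thy1 RNA in CPM (left) and cut sites in CPM in the Thy1 promoter region (right) in Xist and Y nuclei of the granule members of each library. The 4 libraries with 5xFAD transgenes lie between 110 and 222 CPM and between 312 and 579 CPM of cut sites, and the wild type bars lie below 35.8 CPM and at 22.8 and 30.4.

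Most of the other genes named here were picked for having the same sign in both sexes, so that agreement is no finding. Hist1h2bc, a histone gene, was at 4.09 CPM in wild type and 8.03 in 5xFAD, a log2 ratio of 0.52 ± 0.10 over all members, with 0.59 in Xist and 0.601 in Y nuclei. Gpc5 was at 56.5 and 72.2 CPM, and Cdh23 at 5.303 and 1.32 CPM, a log2 ratio of -0.70 ± 0.09. Cdh23 was a leading gene of a cluster of 72 members, at 112 CPM there and 1.56 CPM in all other members, and this cluster held 30 wild type and 13 5xFAD members (2.16% and 1.13%). Mid1, an X-linked ubiquitin ligase gene, was at 31.9 and 46.6 CPM. Etv1, an ETS transcription factor gene, was at 49.5 CPM in wild type, 69.7 in 5xFAD and 48.6, 46.5 and 52.9 in the knockout libraries. Among the lower ones were Dach1, a nuclear corepressor gene (41.3 and 28.8 CPM, log2 ratio -0.45 ± 0.07), Mapk4, an atypical kinase gene (181 and 139 CPM), and Oprm1, the mu opioid receptor gene (26.7 and 20.8 CPM). Apart from Cdh23 none of these passed 1.5-fold over all members. Col25a1 encodes a transmembrane collagen that is found in amyloid plaques. It was at 535 CPM in wild type, 365 in 5xFAD and 273, 286 and 292 in the knockout libraries, with a log2 ratio of -0.55 ± 0.02 that stayed just under 1.5-fold.

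Activity genes mostly had slightly negative ratios in 5xFAD members. In each of 2 lists 1 gene was called, against 0.0515% of all genes higher and 0.0956% lower. Of 12 immediate early genes with enough UMIs 1 was lower, 0 were higher and 1 had a positive ratio, with a median of -0.23. The lower one was Nr4a3, a nuclear receptor gene, at 17.2 and 6.76 CPM (log2 ratio -0.91 ± 0.09). The 10 late activity genes had a median of -0.19, with -0.10 in Xist nuclei and -0.24 in Y nuclei. Among them Pcsk1, a prohormone convertase gene, was lower at 15.4 and 7.24 CPM (-0.74 ± 0.09). Without nuclei holding both Xist and Y-linked UMIs its ratio was -0.17. Both were leading genes of the same cluster of 72 members as Cdh23, Nr4a3 at 98.03 CPM there against 9.202 in all other members and Pcsk1 at 134 against 9.701. The part of this cluster in these calls was not tested. The 12 GABA-A receptor genes, 28 potassium channel genes, 9 AMPA and NMDA receptor genes and 10 granule genes outside the rule had 0 calls each, with medians of -0.01, 0.01, -0.03 and 0.07. Heat shock genes had a median of 0.22 over 10 genes and 0 calls. At the shares of all genes the counts of 0 are near the background.

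Each of the 3 knockout libraries was compared with the same 5xFAD library, so whatever sets that library apart enters all of them. Most calls were upward. Against 5xFAD, 396 of 13728 genes (2.88%) were higher and 28 (0.204%) lower in astrocyte MAGL-KO members, 356 of 13448 (2.65%) higher and 19 (0.141%) lower in neuron MAGL-KO members, and 133 of 13636 (0.975%) higher and 17 (0.125%) lower in global MAGL-KO members. In both Xist and Y nuclei 147 (1.07%), 172 (1.28%) and 38 (0.279%) were higher and 8 (0.0583%), 9 (0.0669%) and 8 (0.0587%) lower. The median log2 ratio of all genes was 0.13, 0.11 and 0.03. With size factors that centre the genes, the counts were 156 higher and 61 lower, 204 and 42, and 114 and 20, which moved the share of upward calls from 93.4% to 71.9% in astrocyte MAGL-KO and from 94.9% to 82.9% in neuron MAGL-KO. The median depth of members was lower in astrocyte MAGL-KO (11739 UMIs) and higher in neuron MAGL-KO (15008) than in 5xFAD (14237). Nuclei were also thinned to 5000 UMIs, and those with fewer were left out. The genes higher were then 449 of 10905, 435 of 10189 and 126 of 10699. These 3 counts were within 1.5 times of the main ones, but fewer genes were tested, so the shares are not alike.

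A few genes stood apart in all 3 knockout libraries. Cfap54 (chr10:92775619-93081618), a gene for a ciliary protein, was at 137 and 130 CPM in wild type and 5xFAD and at 31.8, 28.5 and 33.6 CPM in the knockout libraries. Its log2 ratios to 5xFAD were -1.87 ± 0.06, -2.01 ± 0.07 and -1.81 ± 0.05. The 3 knockout values did not overlap with the other 2, in Xist nuclei or in Y nuclei. Cfap54 led the lower genes of each knockout comparison by the smaller of the Xist and Y ratios. That choice fixed the separation in part, and the share of all genes with such a separation was not counted. In CA1-like and CA3-like nuclei the astrocyte MAGL-KO ratios were -1.41 and -1.30, so the difference was not limited to granule members. AC149090.1, a gene model on the unplaced scaffold JH584304.1 that may share reads with other copies, was at 311, 253, 648, 649 and 443 CPM. Cadm2 (chr16:66655421-67620908), a synaptic adhesion gene and one of the most abundant RNAs here, was at 9608, 9622, 6591, 7189 and 7165 CPM, with log2 ratios of -0.55, -0.42 and -0.42 that stayed under 1.5-fold. P2ry14, a purinergic receptor gene at chr3:59113855-59153618, was at 45.0 and 37.8 CPM in wild type and 5xFAD, at 76.4 and 79.1 CPM in astrocyte and neuron MAGL-KO, and at 49.2 CPM in global MAGL-KO. Its log2 ratios in CA1-like and CA3-like nuclei were 0.74 and 0.91 in astrocyte and 0.90 and 1.05 in neuron MAGL-KO. Its neighbour P2ry12, known as a microglial gene, went with it at 21.9, 18.5, 39.2, 37.2 and 23.5 CPM. The whole microglial list summed to 45.4, 44.3, 68.9, 62.8 and 46.4 CPM, and without P2ry12 to 23.5, 25.8, 29.6, 25.6 and 22.9 CPM. Apart from P2ry12 none of its 5 or 4 genes tested was called in these 2 comparisons. The part of microglial RNA in P2ry12 was not tested.

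**Figure D4:**
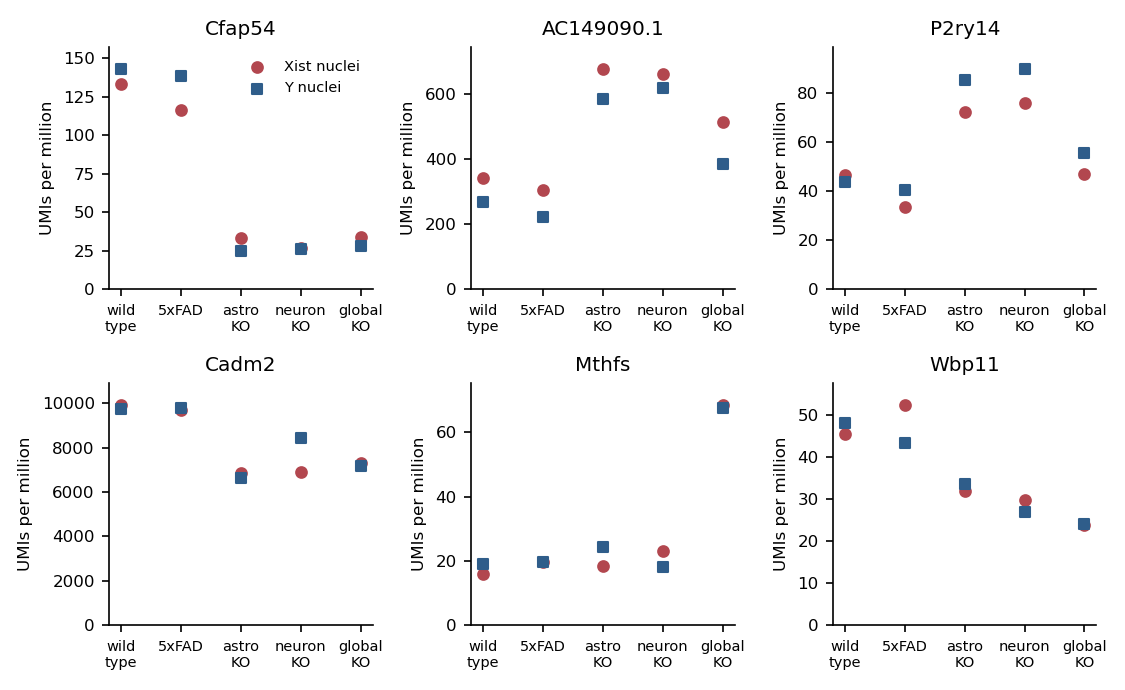
CPM of Cfap54, AC149090.1, P2ry14, Cadm2, Mthfs and Wbp11 in Xist nuclei (circles) and Y nuclei (squares) of the granule members in each library. For Cfap54 the knockout points lie near 31.8 CPM and the others near 130 CPM, and for Mthfs only the global MAGL-KO points rise, to 68.6 CPM over all members.

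Among the named genes that were higher in astrocyte MAGL-KO members were Gapdh, Ubb and Tubb2a. Gapdh, a glycolysis enzyme gene, was at 20.8, 24.98, 57.1, 38.4 and 26.6 CPM over the libraries, a log2 ratio of 1.05 ± 0.07 to 5xFAD. Ubb, a polyubiquitin gene, had 21.7, 30.1, 65.0, 50.0 and 28.7 CPM, and Tubb2a, a tubulin gene, 21.2, 20.0, 43.0, 34.0 and 20.8 CPM. These rises were not limited to granule members. In CA1-like and CA3-like nuclei the astrocyte MAGL-KO log2 ratios were 1.01 and 0.84 for Gapdh. They were 0.97 and 0.99 for Ubb and 0.81 and 0.80 for Tubb2a. For these 3 genes astrocyte MAGL-KO was highest and neuron MAGL-KO next, while global MAGL-KO lay near 5xFAD.

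The same order held for ribosomal protein genes, which encode the protein part of the ribosome. In astrocyte MAGL-KO 8 of 20 were higher (all genes, 2.88%), 20 of 20 had a positive ratio, and the median was 0.54, or 0.41 above that of all genes. Rpl3 was at 19.8, 19.8, 35.5, 27.1 and 17.2 CPM and Rpl41 at 28.9, 26.6, 44.3, 42.9 and 25.8 CPM. The median was 0.56 in Xist nuclei and 0.51 in Y nuclei, and 0.49 and 0.51 in CA1-like and CA3-like nuclei. In neuron MAGL-KO 2 of 20, Rpl37 and Rpl41, were higher (all genes, 2.65%) with a median of 0.37. With size factors Rpl3 and Rpl41 had log2 ratios of 0.57 and 0.49 in astrocyte MAGL-KO, and Rpl37 and Rpl41 0.51 and 0.48 in neuron MAGL-KO, all under 1.5-fold. In global MAGL-KO 0 of 20 were called in either direction and the median was -0.11.

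Nuclear genes of the respiratory chain gave 5, 1 and 0 of 20 higher in the order astrocyte, neuron and global MAGL-KO, against 2.88%, 2.65% and 0.975% of all genes, with medians of 0.47, 0.36 and -0.03. With size factors none of these 6 calls stayed past 1.5-fold, at log2 ratios of 0.47 to 0.56. Uqcrq, a subunit gene of complex III, was at 11.0, 9.61, 18.0, 18.2 and 10.1 CPM. Hspa8, the constitutive heat shock cognate gene, was the 1 heat shock gene called, at 34.5, 41.9, 72.8, 57.1 and 42.4 CPM, and its log2 ratio in astrocyte MAGL-KO fell from 0.73 to 0.576, under 1.5-fold, with size factors. The largest mitochondrial share of any member was 1.44%, 0.275%, 0.891%, 0.463% and 0.457%. The median share was 0.00577%, 0.00663%, 0.00870%, 0.00768% and 0.00578%, highest in astrocyte and next in neuron MAGL-KO, as in these rises. The part of RNA quality in these rises was not tested.

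Genes of the granule cell's synapses and channels gave few calls in the knockout libraries, where 2.88%, 2.65% and 0.975% of all genes were higher, so that a list with 0 calls is near the background. Of 9 AMPA and NMDA receptor genes 0 were called in any of them, with medians of 0.02, 0.09 and 0.03. Of 12 kainate and metabotropic receptor genes 0 were called, and of 15 granule transcription factor genes 0. The 12 GABA-A receptor genes had medians of -0.07, -0.04 and -0.10 and 1 call, Gabra3, at 6.97 CPM in 5xFAD and 13.1 in global MAGL-KO. Of 28 potassium channel genes 1 was higher and 1 lower in astrocyte, 1 higher in neuron and 2 higher in global MAGL-KO. Among them Kcnh5 was lower in astrocyte MAGL-KO (35.7 CPM against 58.5) and Kcnc2 higher in global MAGL-KO (74.0 against 38.2). Slc8a1, a sodium and calcium exchanger gene, was called in neuron and global MAGL-KO, at 303, 248, 346, 407 and 423 CPM over the libraries. Cnr1 was called in all 3, at 13.9, 7.76, 16.6, 18.1 and 20.1 CPM. Of 17 mossy fibre terminal genes the presynaptic adhesion gene Nrxn3 was higher in astrocyte and global MAGL-KO, at 1977, 1568, 2359, 2042 and 2532 CPM.

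Several of these calls fell under 1.5-fold when some clusters of members were left out. Members fell into 8 clusters, and 3 of them were set aside after their leading genes were seen. One of 525 nuclei had a median depth of 32988 UMIs, 52.2% nuclei with both Xist and Y-linked UMIs, and Etl4, Mgat4c and Dpp10 as leading genes, none of them in a marker list. This cluster held 6.56%, 6.33%, 8.39%, 11.6% and 10.8% of each library's members, more in all 3 knockout libraries than in the other 2. Its median score for the CA1 markers was 0.0997, against -0.533 over all members. Others of 126 and 25 nuclei were led by genes of glia and of microglia. Without the 3 clusters the log2 ratios of Cnr1 were 0.19, 0.37 and 0.22 in place of 0.76, 0.86 and 0.97. Slc8a1 had 0.33 and 0.30 in place of 0.70 and 0.76 in neuron and global MAGL-KO, and Gabra3 had -0.00 in place of 0.60 in global MAGL-KO. Kcnc2 had 0.48 in place of 0.87 in global MAGL-KO and Kcnh5 -0.51 in place of -0.64 in astrocyte MAGL-KO. None of these remained past 1.5-fold. Without only the nuclei holding both Xist and Y-linked UMIs several did remain. Kcnc2 was then at 1.49, Slc8a1 at 0.65 and 0.675, and Cnr1 at 0.704 and 0.61 in neuron and global MAGL-KO, while Cnr1 in astrocyte MAGL-KO (0.41), Gabra3 (0.49) and Kcnh5 (-0.57) did not. In global MAGL-KO Kcnc2 and Slc8a1 were past 1.5-fold in both Xist and Y nuclei. Without the 3 clusters the calls on Cfap54 and Mthfs remained, at -1.99, -2.23 and -1.94 for Cfap54 and 1.57 for Mthfs.

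In global MAGL-KO members a group of genes was high in no other library. Mthfs (chr9:89210676-89377713), a folate enzyme gene, was at 18.2, 20.4, 21.3, 24.03 and 68.6 CPM, a log2 ratio of 1.53 ± 0.07 that was 1.57 in Xist nuclei and 1.55 in Y nuclei, and 1.34 and 1.32 in CA1-like and CA3-like nuclei. Zfp949, a zinc finger gene on the same chromosome at chr9:88548020-88571061, was at 39.6, 42.8, 43.9, 36.9 and 79.7 CPM. Tshz3, also a zinc finger gene, was at 52.9, 52.8, 63.2, 64.6 and 107 CPM, and Kcnk13, a two-pore potassium channel gene, at 8.63, 8.13, 10.5, 11.7 and 18.6 CPM.

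Genes that were lowest in global MAGL-KO included Wbp11, a splicing factor gene at chr6:136813654-136828233. It was at 46.2, 46.7, 32.8, 29.8 and 24.4 CPM, with a log2 ratio of -0.82 ± 0.07 in members and -0.28 and 0.06 in CA1-like and CA3-like nuclei. Ide encodes the insulin-degrading enzyme, which also cuts amyloid beta. Its level was 55.6, 67.6, 57.8, 77.5 and 42.5 CPM, a log2 ratio of -0.61 ± 0.06, and 45.1 and 39.4 CPM in Xist and Y nuclei against 68.4 and 65.8 in 5xFAD. The log2 ratios of Ide in CA1-like and CA3-like nuclei were -0.81 and -0.67, so its fall was not limited to granule members. In astrocyte MAGL-KO, Ndst4, a heparan sulfate enzyme gene, was just under 1.5-fold lower at 174 CPM against 262, and Mid1 was at 23.2 CPM against 46.6. In neuron MAGL-KO, Ptprz1, a receptor phosphatase gene, was at 169 CPM against 242. Pxdn, a peroxidase gene, was higher in all 3 knockout libraries and in both sexes of each, at 46.3, 35.8, 65.5, 72.7 and 67.98 CPM. Its log2 ratios in CA1-like and CA3-like nuclei were 1.05 and 0.96 in neuron and 0.87 and 0.87 in global MAGL-KO.

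Some late activity genes were higher in members of the knockout libraries, from which the rule had removed the nuclei with the highest activation scores. Of 10 genes 4, 5 and 2 were higher in the order astrocyte, neuron and global MAGL-KO, against 2.88%, 2.65% and 0.975% of all genes, and 0 were lower. Medians were 0.41, 0.49 and 0.29. Sorcs3, a sorting receptor gene, was called in all 3, at 115, 77.6, 132, 156 and 154 CPM. Npy, the neuropeptide Y gene, was as well, at 5.12, 2.91, 8.60, 15.1 and 7.498 CPM. Inhba, which encodes the activin A subunit, was at 26.8, 22.7, 42.3, 40.3 and 27.6 CPM. Some calls ended under alternatives. Without the 3 clusters set aside, Vgf and Nptx2 had log2 ratios of 0.44 and 0.57 in neuron MAGL-KO, and with size factors Bdnf and Sorcs3 had 0.47 and 0.571 in astrocyte MAGL-KO. With the activation score below 0.5 in place of 1, Bdnf and Sorcs3 had 0.49 and 0.575 in astrocyte, Nptx2 and Vgf 0.561 and 0.575 in neuron and Npy 0.42 in global MAGL-KO, so that 5 of the 11 calls ended. Immediate early genes had 0 calls in the 3 comparisons, with medians of 0.25, 0.24 and 0.10, and Fos was at 0.46 to 0.81 CPM, or 7 to 18 UMIs. Penk, an activation gene that the rule used to choose members, was at 4.31, 3.64, 10.7, 10.2 and 10.6 CPM, given as a description only.

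Split by sex, which was not tested, the late activity median was 0.60 in Xist and 0.05 in Y nuclei of astrocyte MAGL-KO and 0.41 and -0.12 in global MAGL-KO, whereas in neuron MAGL-KO it was 0.37 and 0.26. Bdnf, the neurotrophin gene, was at 78.2, 69.6, 143, 65.1 and 108 CPM in Xist nuclei and at 98.3, 69.0, 63.6, 66.5 and 48.8 CPM in Y nuclei. The highest values were those of Xist nuclei of astrocyte (143 CPM) and global MAGL-KO (108 CPM), followed by wild type Y nuclei (98.3 CPM). The lowest, 48.8 CPM, was that of global MAGL-KO Y nuclei. Sorcs3 was at 99.8, 46.7, 133, 133 and 177 CPM in Xist nuclei and at 92.4, 75.7, 71.4, 95.9 and 57.0 CPM in Y nuclei.

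A further set of genes went with one cluster. This cluster of 443 members was 89.4% Xist nuclei and held 3, 2, 185, 23 and 230 nuclei, or 0.216%, 0.173%, 13.98%, 2.77% and 16.1% of each library's members. Its median activation score was 0.522, under the threshold. Lhfp, Sema3e, Unc5d, Prlr, Col6a1, Pcdh7, Plpp4, Parp8 and Sorcs1 were among its leading genes, which is how the cluster was formed and no finding in itself. Across libraries, Sema3e, a guidance cue gene at chr5:14025276-14256689, was at 20.8, 19.8, 67.8, 43.8 and 130 CPM in Xist members and at 9.17, 16.7, 10.1, 7.99 and 17.7 CPM in Y members. Lhfp (chr3:53041528-53261679) was at 5.76, 12.1, 47.8, 32.4 and 75.1 CPM in Xist members and at 2.09 to 9.02 CPM in Y members. Col6a1, a collagen VI chain gene at chr10:76708792-76726168, was at 0.894 (9 UMIs), 1.98, 24.1, 4.03 and 26.6 CPM in Xist members and at 1.23 to 1.82 CPM in Y members. Prlr, the prolactin receptor gene, was at 7.65, 13.3, 32.2, 12.6 and 42.0 against 3.80 to 7.76 CPM. In each case the knockout Xist values of astrocyte and global MAGL-KO lay above all other values. These genes were picked from a cluster held mostly by Xist nuclei of those libraries, so this order was fixed in part. So was a fall of these genes without the cluster. Without the cluster the astrocyte MAGL-KO log2 ratios of Lhfp, Sema3e and Prlr over all members were 0.07, 0.35 and 0.09 in place of 0.89, 0.72 and 0.66. Col6a1 stayed past 1.5-fold without it, at 1.103 in astrocyte and 0.84 in global MAGL-KO, as did Sema3e in global MAGL-KO at 1.004. Of the late activity genes Sorcs3 stayed past it too, at 0.79 and 0.935, as did Inhba and Npy in astrocyte MAGL-KO at 0.76 and 0.68, while Bdnf was at 0.38 in astrocyte and Npy at 0.44 in global MAGL-KO. Nrxn3 was at 0.35 and 0.55 in these libraries.

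The 10 granule genes outside the rule had 0 calls over all members in each comparison. Their medians in Xist nuclei were -0.10, -0.11 and -0.30 in astrocyte, neuron and global MAGL-KO, and 0.14, 0.12 and 0.02 in Y nuclei. Calb1, the calcium buffer gene, was at 135, 136, 113, 122 and 65.2 CPM in Xist members and at 149, 162, 177, 138 and 160 CPM in Y members. The lowest value was that of the global MAGL-KO Xist members. Tspan18, a tetraspanin gene in no list, was at 79.6, 89.6, 45.4, 98.2 and 34.5 CPM in Xist and at 56.9, 73.2, 108, 89.4 and 129 CPM in Y members, so the sexes stood in opposite order in wild type and in global MAGL-KO. Dsp was at 37.9, 39.4, 36.3, 40.1 and 24.8 CPM in Xist members and at 29.2 to 55.6 CPM in Y members.

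**Figure D5:**
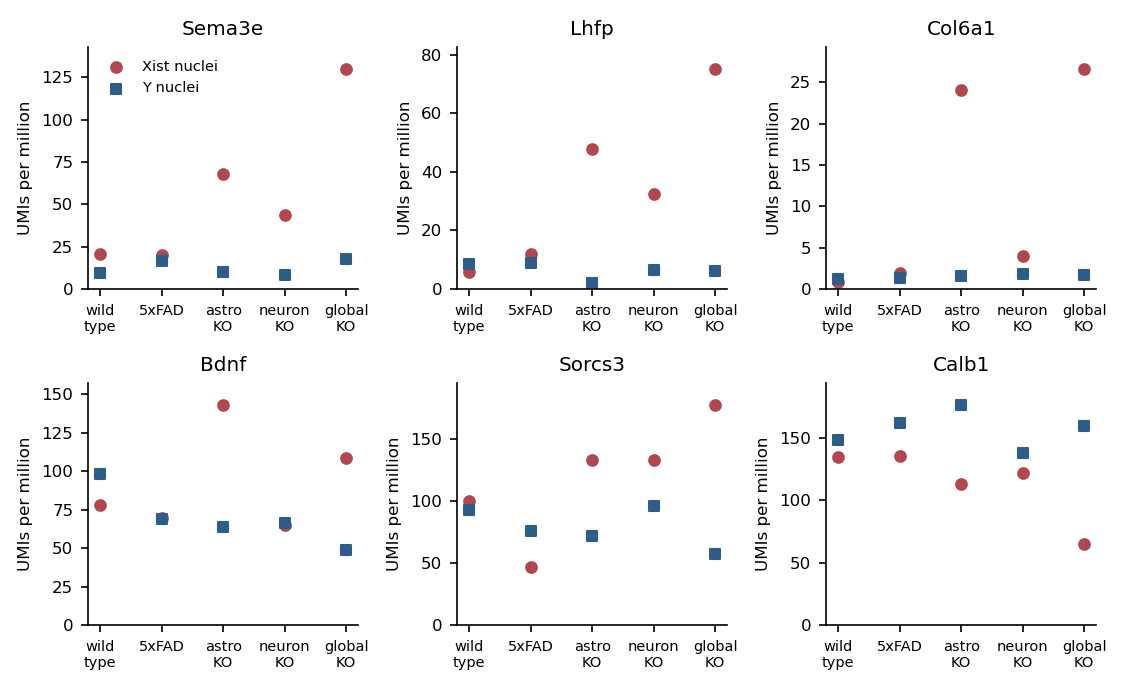
CPM of Sema3e, Lhfp, Col6a1, Bdnf, Sorcs3 and Calb1 in Xist nuclei (circles) and Y nuclei (squares) of the granule members in each library. For the first 4 genes the circles of astrocyte and global MAGL-KO lie above all squares (Sema3e, 67.8 and 130 CPM), and for Calb1 the global MAGL-KO circle is the lowest point at 65.2 CPM. Sema3e, Lhfp and Col6a1 were picked as leading genes of the Xist cluster, which fixes this order in part for them.

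Counted over all genes, the difference between Xist and Y members was small in wild type and 5xFAD and larger in the knockout libraries. Apart from Xist, Tsix and Y-linked genes, 29, 24, 218, 290 and 297 genes were 1.5-fold higher in Xist members, which is 0.254%, 0.215%, 1.89%, 2.60% and 2.61% of those tested. Lower were 23, 35, 84, 38 and 203 genes. The neuron MAGL-KO count rests on 175 Y nuclei, the smallest group. Chromatin was counted in both directions too. Of 51239 autosomal regions 150, 204, 872, 1259 and 1286 were at least 2-fold more open in Xist members, and 100, 387, 503, 578 and 1227 in Y members. The sides were nearly equal in global MAGL-KO, and in 5xFAD the Y side was larger. Over all these regions the share more open in Xist members was 0.293%, 0.398%, 1.70%, 2.46% and 2.51%. Shared by astrocyte and global MAGL-KO were 346 of the regions more open in Xist members, 39.7% of the former's and 26.9% of the latter's. Neuron MAGL-KO shared 51 with astrocyte MAGL-KO (4.05% of its own and 5.85% of the latter's) and 75 with global MAGL-KO (5.96% and 5.83%). Its Y members held 2730245 cut sites against 10096486 in its Xist members, so its region counts and shares rest on a thin Y side. Wild type and 5xFAD, with far fewer such regions, shared 3 (2% and 1.47%), and 5xFAD and neuron MAGL-KO shared 9 (4.41% and 0.715%). The promoter of Lhfp, a leading gene of the Xist cluster, had 6.06, 8.31, 6.83, 6.83 and 10.8 CPM of cut sites in Xist members and 8.54, 6.55, 7.84, 6.59 and 4.69 CPM in Y members. Whether sex, single animals within a pool or the knockout goes with these values cannot be told apart, since the labels do not say how many animals of each sex a library held.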

How the data were processed

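The authors deposited, for 5 multiome libraries of mouse hippocampus nuclei, filtered matrices of counts per nucleus, with whole-number UMI counts of 32285 genes and cut site counts of peaks called separately in each library. The submitters' processing notes name Cell Ranger ARC 2.0.0, Seurat and mm10, and the aligner and annotation are not given in the sources used here. Nuclei came from Dounce lysis and an iodixanol gradient, per the labels' protocols, and all labels carry the same batch name.

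Members and gene lists were chosen with earlier results of these data known. Analyses ran in Python 3.11.15 with numpy 2.4.6, scipy 1.17.1, pandas 2.3.3 and scanpy 1.11.5, and figures in matplotlib 3.10.9. UMIs of members were summed per library and scaled to counts-per-million (CPM), and log2 ratios used a pseudocount of 5 CPM with a Poisson SE. Calls were 1.5-fold with at least 50 UMIs over both libraries. CA1-like and CA3-like nuclei had a score of at least 0.5 for that list. Regions needed 200 cut sites in members, and a comparison count under 3 was set to 3. Promoter regions lie within 500 bases of the start position that the deposited matrices give for a gene. Gene coordinates and the exon and intron labels of regions are from GENCODE vM21. Members were clustered on 2000 variable genes, 30 components, 15 neighbours and Leiden resolution 0.5. No doublet caller was run. Nuclei with both Xist and Y-linked UMIs (5.81% to 9.53% of members, median depth 27974 to 38650 UMIs) were kept and left out in an alternative. The 38 symbols used by more than 1 feature were left out of counts by sex.

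Named genes had at least 200 UMIs, a member CPM of at least 0.5 of that of all nuclei, and the same sign in both sexes, and were the 10 highest and 10 lowest by the smaller of the Xist and Y ratios. Left out were unnamed models, Y-linked and mitochondrial genes, Tsix and Xist. List genes and leading cluster genes are named too. Tspan18, Gpc5, Gpc6, Cdh23 and Il1rapl2 were picked after their values were seen. Antisense genes and overlapping neighbours are uncertain, since strand use in counting is not stated. Scripts were checked on simulated counts. Alternatives changed the score thresholds, the gene minimum, the scaling, the pseudocount, the UMI minimum, the depth (thinning to 5000 UMIs), the averaging and the nuclei kept. Sequence at the peaks is not used here, and some genes are not reported here.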

Additional observations from a re-analysis of the deposited data

Results flagged for a closer look

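These gene values moved past 1.5-fold in one direction in Xist members and past 1.5-fold in the other in Y members under the same contrast. The differences between the sexes were not tested, since each rests on 1 library per genotype. Each value is the log2 ratio in Xist members minus that in Y members.

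In 5xFAD against wild type, Kcnc2, a fast potassium channel gene, differed by -1.67 (-0.997 in Xist and 0.67 in Y members). In neuron MAGL-KO against 5xFAD the same gene differed by 2.75 (1.48 and -1.27). The 5xFAD library enters these comparisons on opposite sides, so the turn of sign was partly built in. Its levels were 27.5, 11.3, 17.5, 40.4 and 86.9 CPM in Xist members and 13.0, 23.7, 10.1, 6.90 and 42.0 CPM in Y members, with 38.2 to 74.0 CPM over all members, which also hold nuclei of both kinds.

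In astrocyte MAGL-KO, Lhfp differed by 2.61 (1.63 and -0.98) and Itgav, an integrin gene, by 1.41 (0.77 and -0.64). Itgav also differed in global MAGL-KO, by 1.26 (0.63 and -0.63). It was at 40.6, 26.6, 48.8, 32.2 and 43.8 CPM in Xist and at 62.7, 47.3, 28.5, 38.2 and 28.9 CPM in Y members.

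In neuron MAGL-KO, Grik1, a kainate receptor gene, differed by 2.28 (1.37 and -0.92) and Sema3e by 1.71 (0.98 and -0.74). The Y side of Grik1 rests on 1.09 CPM, or 3 UMIs, in 175 nuclei.

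In global MAGL-KO, Sorcs1 differed by 2.77 (1.99 and -0.77), Rasgrp1, a Ras activator gene, by 2.25 (1.52 and -0.73), Pcdh7, a protocadherin gene, by 1.95 (1.20 and -0.75), Kcnip1, a potassium channel partner gene, by 1.38 (0.76 and -0.62) and Mapk4 by 1.35 (0.69 and -0.66). Rasgrp1 was at 48.3, 34.6, 90.7, 58.8 and 109 CPM in Xist and at 54.2, 39.7, 30.8, 46.2 and 22.0 CPM in Y members. Itgav, Lhfp, Rasgrp1, Sorcs1, Pcdh7, Kcnip1 and Mapk4 were flagged in astrocyte or global MAGL-KO, where the Xist cluster of 443 nuclei was large. Of these, Lhfp, Sorcs1 and Pcdh7 are leading genes of that cluster, so the match was in part fixed for them. Grik1, Sema3e and Kcnc2 were flagged in neuron MAGL-KO, where the cluster held 2.77% of members. The part of the cluster in these values was not tested.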

How the results depend on the processing

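No paired analysis was possible because every genotype is a single library. For the same reason no result has a replicate check. The labels record neither animals nor sex per library, so differences between animals and between genotypes cannot be told apart, and calls needed 50 UMIs over both libraries. Levels given for scarcer genes, such as Fos, rest on few UMIs.

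Shares of members in the 5 libraries moved to 18.5%, 15.4%, 15.9%, 15.5% and 13.6% with a granule score of at least 0.8 and to 23.0%, 19.9%, 17.4%, 18.0% and 15.3% with an activation score below 0.5. Without nuclei holding both Xist and Y-linked UMIs they were 28.8% in wild type and 23.8% in 5xFAD. Further alternatives were chosen after seeing the data. Without the 3 clusters set aside the shares were 24.5%, 20.5%, 19.3%, 17.9% and 16.9%, and without the Xist cluster 18.8% in astrocyte and 16.3% in global MAGL-KO. Wild type was highest under each of these.

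For 5xFAD against wild type, the genes higher were 15 without nuclei of both kinds, 2 without the 3 clusters, 56 with a pseudocount of 1 and 4 with means over nuclei. The genes lower were 42 with the granule score of at least 0.8, 7 without nuclei of both kinds, 114 with the pseudocount of 1 and 20 after thinning to 5000 UMIs. For astrocyte MAGL-KO the counts higher and lower were 156 and 61 with size factors and 1509 and 75 with the pseudocount of 1, and 16 were lower without the Xist cluster. For neuron MAGL-KO they were 204 and 42, and 1322 and 72, and thinning gave 30 lower. For global MAGL-KO they were 381 and 91 with the pseudocount of 1, and 82 were higher without the 3 clusters. Regions at least 4-fold more open numbered 611. The cause was not tested.

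Of 88 recomputed gene counts 67 stayed within 1.5 times. Of 1386 recomputed ratios of reported genes past 1.5-fold 1384 kept their sign and 1177 stayed past it. These came from 126 calls, and 72 of the 126 fell under 1.5-fold in at least 1 alternative. Dropping the UMI minimum cannot change a ratio, so the agreement was fixed in part. Those that turned were Gabra3 without the 3 clusters (-0.001 in global MAGL-KO) and Lhfp with the activation score below 0.5 (-0.02 in neuron MAGL-KO). Thy1 stayed between 1.86 and 2.01, Cfap54 between -2.23 and -1.81 over the 3 comparisons, and Mthfs between 1.504 and 1.70.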

Other observations

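Sex differences that held in every library were few. Of 11869 genes, 9 were higher in Xist members by at least 0.25 on the log2 scale in all 5 libraries, and 6 of these are autosomal. Bach2, a transcription repressor gene, was at 40.8, 40.0, 32.9, 43.1 and 41.9 CPM in Xist members and at 25.2, 30.6, 23.0, 30.9 and 23.99 CPM in Y members, so the sexes did not overlap. Klf10, a zinc finger gene, was at 6.75, 6.26, 8.83, 13.3 and 9.77 CPM in Xist members and at 4.11, 3.04, 6.46, 7.63 and 3.80 CPM in Y members. The other autosomal ones were Garnl3, Bcl2, Gm41804 and Gm48530, and the X-linked ones were Xist, Tsix and Jpx, a neighbour of Xist. In the other direction 5 genes passed, the 4 Y-linked genes used for the call and Gpr137c. Genes named in this paragraph were chosen after their values were seen.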
